A study of Homo sapiens with 6 samples.

Results

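The cytosolic heat shock and receptor chaperones described here are 10 genes, chosen by name for their roles in folding proteins and steroid receptors: *HSP90AA1*, *HSP90AB1*, *HSPA1A*, *HSPA1B*, *HSPA8*, *DNAJB1*, *HSPH1*, *HSPB1*, *FKBP4* and *STIP1*. They are 10 of the 29806 NCBI Gene numbers counted by RNA-seq in LNCaP, an androgen-responsive human prostate cancer cell line. The LNCaP parental group (genotype wild type) was 3 dishes of unedited cells. The PACT KO group was 3 dishes of 1 CRISPR/Cas9 clone in which *PRKRA*, the gene of the double-stranded RNA-binding protein PACT, had been cut in exon 2. Both groups were grown in RPMI-1640 with 10% FBS, without any added hormone or drug named in the labels, and RNA was taken 48 h after 1000000 cells were plated per 10 cm dish. As the PACT KO dishes come from a single clone, an effect of losing PACT and a feature of that clone cannot be told apart, and the p-values below measure the spread between dishes. The libraries held 19930060 to 24940838 counts, so that 3 counts, taken as the limit of detection, correspond to 0.121 to 0.148 CPM, that is counts scaled to 1000000 per library. *PRKRA* itself fell from 37.1 ± 1.96 to 12.5 ± 0.995 CPM (mean ± SD, n = 3 for every mean below), with 809 to 882 counts in the parental libraries and 243 to 331 in PACT KO. This count covers the whole gene and not PACT protein.

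Heat shock proteins bind unfolded or partly folded proteins and use ATP, or in the case of the small heat shock proteins no ATP, to keep them from aggregating. HSP70 proteins work first, with HSP40 proteins (the DNAJ family) that bring substrates and nucleotide exchange factors that release them, and HSP90 proteins then take over clients such as kinases and steroid receptors. In the receptor cycle STIP1 bridges HSP70 to HSP90, and immunophilins such as FKBP4 and FKBP5 join the late complex that holds the receptor ready for hormone. In prostate cells this machinery is known for its part in the response to steroid hormones. Transcription of many of these genes rises under heat or other protein damage through heat shock factors, which bind arrays of the unit GAA alternating in orientation.

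The heat shock element is shown here because it is the sequence feature the genes are known to share. Windows from 250 bases before to 50 bases after the annotated start (RefSeq, GRCh38.p14) were at hand for 9 of the 10 genes, the exception being *FKBP4*. They were searched on both strands for GAANNTTC and TTCNNGAA, each of which is its own reverse complement, so that a match on one strand is also a match on the other. At least 1 such pair of units was found in 8 of the 9 windows and in 13.5% of 35116 windows of the same 300 bases over all genes. Overlapping pairs, that is 3 adjoining units in a row, were found in 3 of the 9 (*HSP90AA1*, *HSP90AB1* and *HSPA8*) and in 0.49% of all windows. The stretches of 30 bases around the pairs that lie before the start are given 5′ to 3′ along each gene, with the pairs in capitals.
*HSP90AA1*, chr14:102087104-102087133, minus strand: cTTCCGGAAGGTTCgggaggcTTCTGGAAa
*HSP90AB1*, chr6:44247769-44247798, plus strand: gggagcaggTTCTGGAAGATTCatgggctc
*HSP90AB1*, chr6:44247822-44247851, plus strand: ctgagattgTTCTGGAAGCTTCtggattct
*HSPA1A*, chr6:31815426-31815455, plus strand: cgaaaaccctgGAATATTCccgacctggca
*HSPA1B*, chr6:31827622-31827651, plus strand: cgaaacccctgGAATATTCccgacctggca
*HSPA8*, chr11:123062346-123062375, minus strand: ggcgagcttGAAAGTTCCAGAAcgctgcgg
*HSPA8*, chr11:123062171-123062200, minus strand: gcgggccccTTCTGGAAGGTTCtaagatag
*HSPB1*, chr7:76302480-76302509, plus strand: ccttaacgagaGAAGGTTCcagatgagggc

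With the start base counted as 0, the pairs began at -88, -83 and -68 in *HSP90AA1*, at -165, -160, -112 and -107 in *HSP90AB1*, at -230, -225, -55 and -50 in *HSPA8*, at -106 in *HSPA1A*, at -105 in *HSPA1B* and at -182 in *HSPB1*. The pair of *DNAJB1* began at 1 and that of *STIP1* at 13, both just after the start, and the window of *HSPH1* held none. For *HSP90AA1*, *HSP90AB1*, *HSPA8*, *DNAJB1* and *STIP1* the annotated gene reaches beyond the start used, so other transcripts of these genes begin further upstream. The windows of these genes lie inside the annotated gene, and the other starts were not searched. The match in *DNAJB1* may thus lie in an exon or intron of a longer transcript. Whether *DNAJB1* holds pairs before its other starts is not shown. Only exact matches were counted, so a window without one may still hold imperfect units. A match describes these letters only, and binding of a heat shock factor was not measured.

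**Figure D1:**
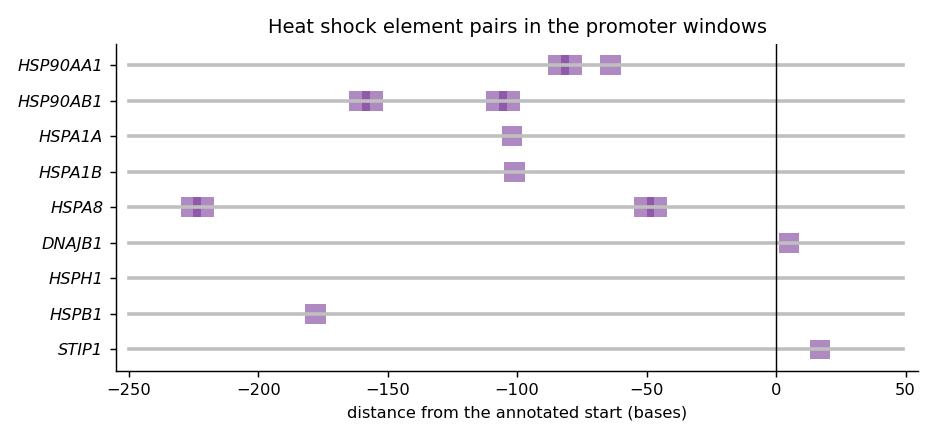
Position of each heat shock element pair (purple blocks, darker where pairs overlap) in the windows of 9 chaperone genes, as distance in bases from the annotated start (vertical line). *HSP90AB1* and *HSPA8* hold 4 pairs each, *HSP90AA1* holds 3, 5 other genes hold 1 each and *HSPH1* holds none.

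Of the 10 genes, 9 had enough reads to be tested, and 8 of these were lower in PACT KO cells at an FDR under 0.01 (edgeR, quasi-likelihood test), 0 were higher and 1, *DNAJB1*, did not pass. Over all 14462 genes tested, 18.8% were lower and 15.3% higher at this FDR, and among the 3068 genes with at least as many reads as the lowest tested chaperone 36.1% were lower, so a lower call was common among well expressed genes. Only *FKBP4* also passed the 1.5-fold threshold that makes a gene a DEG, as did 2.65% of all genes tested in the lower direction. When the test asked for a change beyond 1.2-fold (glmTreat), 2 of the 9 passed, *FKBP4* and *HSPB1*. The median log2 fold change of the 9 was -0.23, against 0.00 for all genes tested and -0.04 for those with as many reads. Every PACT KO library lay below every parental library for the same 8 genes, and for 27.2% of all genes tested. In RNA from whole dishes, fewer cells that express a gene and less RNA per cell cannot be told apart.

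**Figure D2:**
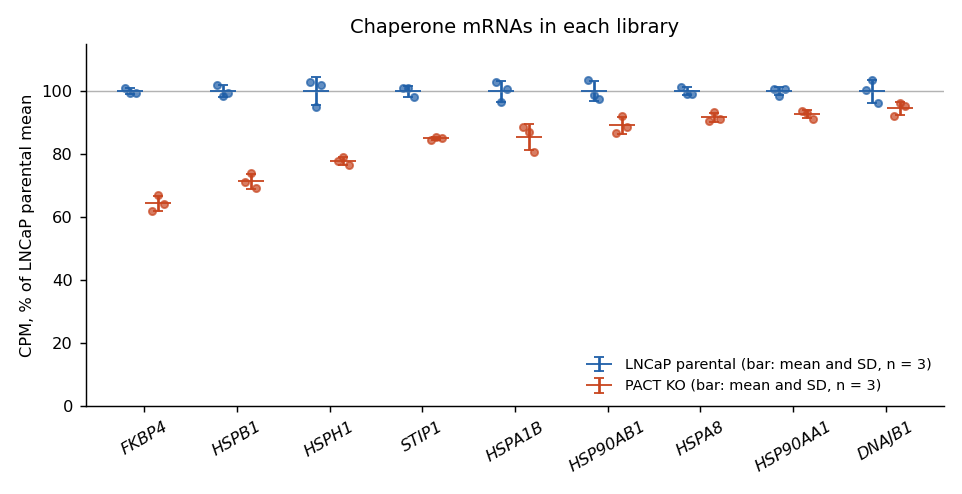
CPM of the 9 tested chaperones in each of the 6 libraries, as percent of the LNCaP parental mean of that gene, with bars for mean and SD (n = 3). PACT KO points lie lowest for *FKBP4*, whose mean fell by 35.6%, and those of *DNAJB1* overlap the parental points.

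The HSP90 proteins of the cytosol are the stress-inducible HSP90AA1 and the constitutive HSP90AB1. *HSP90AB1* (Gene 3326, chr6:44246194-44253883) was read at 2152, 2049 and 2028 CPM in the parental libraries and at 1803, 1913 and 1842 CPM in PACT KO. All PACT KO values lay below all parental ones, and the mean fell by 10.8% (log2 fold change -0.16, SE 0.03, FDR = 3.72e-06). *HSP90AA1* (Gene 3320, chr14:102080742-102139749) had 2188, 2141 and 2191 CPM in parental cells and 2034, 2025 and 1985 CPM in PACT KO, again without overlap. Its log2 fold change was -0.11 (SE 0.02, FDR = 3.67e-04), and 29.4% of all genes tested lay lower on that scale. The call was lost when single libraries were left out, as the FDR was 0.0135 without the third parental library and 0.0117 without the third PACT KO library. *WDR20*, whose span overlaps it, was read at 28.8 ± 0.845 CPM in parental cells and 26.6 ± 0.506 CPM in PACT KO.

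HSPA8 is the constitutive HSP70 of the cytosol, and HSPA1A and HSPA1B are stress-inducible HSP70 proteins that are nearly identical to each other. *HSPA8* (Gene 3312, chr11:123057489-123062462) had 2874, 2812 and 2812 CPM in parental cells and 2569, 2646 and 2588 CPM in PACT KO. It was the most abundant of the 10, and fell by 8.19% with a log2 fold change of -0.12 (SE 0.02, FDR = 7.75e-05). *HSPA1B* (Gene 3304, chr6:31827738-31830254) had 92.0, 86.2 and 90.0 CPM in parental cells against 79.1, 77.8 and 72.1 CPM in PACT KO. The groups did not overlap, and the log2 fold change was -0.23 (SE 0.04, FDR = 3.86e-06). *HSPA1A* (Gene 3303, chr6:31815543-31817942) had 0, 1 and 1 counts in the parental libraries and 2, 0 and 0 in PACT KO. All 6 values are under the limit of 3 counts, the gene was not tested, and no fold is given.

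The near-zero row of *HSPA1A* stands beside 1457 to 2228 counts of *HSPA1B*. The genes lie 9795 bases apart on chromosome 6, and their coding sequences are identical at 1919 of 1923 bases (99.8%, GENCODE 29). After the coding sequence their transcripts align at 48.2% identity, and 30.1% of the 100-base words of the *HSPA1A* transcript and 27.3% of those of *HSPA1B* occur in no other gene. How reads that match both genes were counted is not given in the sources used here, so the 2 rows are read together here. With their counts summed the log2 fold change was -0.23 (FDR = 3.90e-06). As *HSPA1A* added at most 2 counts per library, this is nearly *HSPA1B* alone. The sum cannot show how shared reads were treated. The 250 bases before the start of each gene are printed because the pair is also alike there, at 92% identity over the whole window, and both carry the unit pair GAATATTC, in capitals.
*HSPA1A*, chr6:31815293-31815542, plus strand: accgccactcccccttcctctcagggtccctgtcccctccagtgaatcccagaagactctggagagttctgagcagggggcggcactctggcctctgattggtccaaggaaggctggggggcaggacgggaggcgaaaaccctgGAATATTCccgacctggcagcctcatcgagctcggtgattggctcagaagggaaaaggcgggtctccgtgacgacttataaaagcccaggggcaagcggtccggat
*HSPA1B*, chr6:31827488-31827737, plus strand: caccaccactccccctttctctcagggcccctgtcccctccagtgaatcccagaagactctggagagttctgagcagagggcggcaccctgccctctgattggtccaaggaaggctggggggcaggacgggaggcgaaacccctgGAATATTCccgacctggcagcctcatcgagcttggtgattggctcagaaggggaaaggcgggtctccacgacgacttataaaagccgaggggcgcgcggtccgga

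HSP70 depends on partners. DNAJB1 is an HSP40 that hands substrates to HSP70, and HSPH1 is an HSP110 that exchanges its nucleotide. *HSPH1* (Gene 10808, chr13:31134973-31162388) had 119.5, 110.1 and 118.3 CPM in parental cells and 90.3, 91.9 and 88.8 CPM in PACT KO. It fell by 22.1% without overlap between groups (log2 fold change -0.36, SE 0.03, FDR = 3.01e-11), and 7.88% of all genes tested lay lower. Its window is the one without an exact match to a heat shock element pair. *DNAJB1* (Gene 3337, chr19:14514769-14560391) had 129.0, 133.0 and 123.7 CPM in parental cells and 118.6, 123.72 and 122.4 CPM in PACT KO. The highest PACT KO value and the lowest parental value were 123.72 and 123.67 CPM, so the groups just overlap, and the gene did not pass (log2 fold change -0.08, SE 0.03, FDR = 0.0397). Its annotated span is overlapped by *TECR*, an enzyme of fatty acid elongation, which was read at 155 ± 3.06 CPM in parental cells and 135 ± 2.09 CPM in PACT KO, and whether strand was used in counting is not given in the sources used here.

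HSPB1 is a small heat shock protein, known to hold unfolded proteins without ATP and to bind actin filaments. *HSPB1* (Gene 3315, chr7:76302673-76304292) had 279, 269 and 272 CPM in parental cells and 195, 202 and 189 CPM in PACT KO. The drop of 28.5% was the second largest among the 10 (log2 fold change -0.48, SE 0.03, FDR = 8.09e-17), and 5.04% of all genes tested lay lower.

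The receptor co-chaperones are STIP1, the adaptor that holds HSP70 and HSP90 at once, and FKBP4, the immunophilin known to raise the activity of the glucocorticoid and progesterone receptors. *FKBP4* (Gene 2288, chr12:2794970-2805423) had 419.9, 413 and 412 CPM in parental cells and 258, 278 and 267 CPM in PACT KO. The spread within each group, with SDs of 4.27 and 10.1 CPM, was far smaller than the difference between the means of 415 and 267 CPM. It was 1.55-fold lower (log2 fold change -0.63, SE 0.03, FDR = 9.12e-21), and ranked 443 of the 14462 genes tested when these were ordered from the lowest log2 fold change up. The antisense gene *ITFG2-AS1*, which overlaps it, had 0.157 ± 0.0572 CPM in parental cells and 0.253 ± 0.0926 CPM in PACT KO. *STIP1* (Gene 10963, chr11:64185272-64204543) had 365, 365 and 355 CPM in parental cells and 306, 309 and 307 CPM in PACT KO, a fall without overlap (log2 fold change -0.23, SE 0.03, FDR = 1.59e-09).

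**Figure D3:**
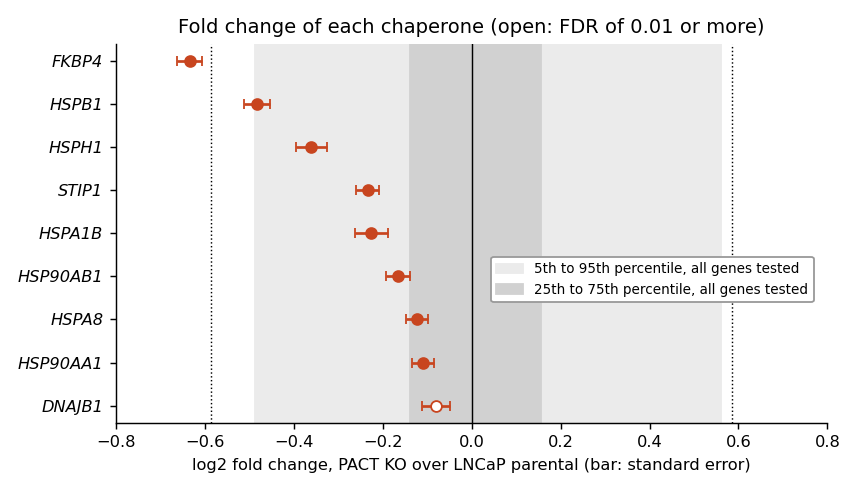
Log2 fold change of PACT KO over LNCaP parental cells with its standard error for the 9 tested chaperones, filled where the FDR is under 0.01, over the range from the 25th to the 75th (dark band) and from the 5th to the 95th percentile (light band) of all genes tested, with dotted lines at 1.5-fold. *FKBP4* at -0.63 lies beyond the line and beyond the 5th percentile of -0.49, *HSPB1* lies at the edge of the light band, and *HSPA8*, *HSP90AA1* and *DNAJB1* lie within the dark band, whose lower edge is -0.14.

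Per kilobase of transcript (the principal GENCODE 29 transcript of each gene), levels can be roughly compared between genes. Which transcripts of a gene were read was not measured, and the SDs do not cover the choice of length. In parental cells *HSPA8* stood at 1150 ± 14.6 CPM per kb, *HSP90AB1* at 776 ± 24.7, *HSP90AA1* at 643 ± 8.25 and *HSPB1* at 300.6 ± 5.68. Then came *STIP1* at 165 ± 2.80, *FKBP4* at 111 ± 1.14, *DNAJB1* at 56.8 ± 2.07, *HSPA1B* at 35.5 ± 1.16 and *HSPH1* at 22.3 ± 0.989 CPM per kb, with *HSPA1A* under the limit of detection. Words of 100 bases shared with other genes, which make counting uncertain, were 5.06% of the *HSPB1* transcript, 2.23% of *HSP90AA1*, 1.59% of *HSP90AB1* and 0 in the 5 genes outside these and the *HSPA1A* and *HSPA1B* pair. In PACT KO the order was the same, from *HSPA8* at 1056 ± 16.4 to *HSPH1* at 17.4 ± 0.30 CPM per kb, and in both groups no gene overlapped its neighbour in the order. The place of *HSPA1B* is uncertain, since 72.7% of the 100-base words of its transcript occur in other genes and the treatment of reads from them is not given. The constitutive HSP70 and both HSP90 genes thus made up most of the reads, and the genes with the larger relative falls, *FKBP4*, *HSPB1* and *HSPH1*, stood below them. Summed over the 10 genes, the level was 8466 ± 132 CPM in parental cells and 7526 ± 121 in PACT KO, 11.1% lower and without overlap between libraries. As a share of all counts, with no scaling factor, the sum was 0.830% to 0.849% in parental libraries and 0.752% to 0.771% in PACT KO.

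Ratios of counts within a library do not depend on scaling, and 7 of them were tested by an exact permutation test over the 3 and 3 libraries, 2-sided, which cannot give a p below 0.10. *HSP90AA1* over *HSP90AB1* was 1.05 ± 0.0319 in parental cells and 1.09 ± 0.0360 in PACT KO, with overlapping libraries (exact p = 0.30, adjusted p = 0.30 over the 7 ratios). *DNAJB1* over *HSPA8* was 0.0454 ± 0.00171 in parental cells and 0.0467 ± 0.000572 in PACT KO, also overlapping (exact p = 0.30, adjusted p = 0.30). The summed inducible *HSPA1A* and *HSPA1B*, nearly all of it *HSPA1B*, over *HSPA8* overlapped too, at 0.0316 ± 0.000767 and 0.0294 ± 0.00149 (exact p = 0.20, adjusted p = 0.28). The log2 changes of these ratios, in the order given, were 0.06, 0.04 and -0.11, with SDs among the libraries of a group of 0.02 to 0.07. Leaving out single libraries moved them over 0.03 to 0.08, 0.02 to 0.07 and -0.14 to -0.07.

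In the other 4 ratios all PACT KO libraries lay below all parental ones, each with the smallest p possible (exact p = 0.10, adjusted p = 0.175). *HSPB1* over *HSPA8* went from 0.0964 ± 0.000718 to 0.0751 ± 0.00177, a log2 change of -0.36. *HSPH1* over *HSPA8* changed by -0.24 and *STIP1* over *HSP90AB1* by -0.07 on the log2 scale, the latter from 0.174 ± 0.00420 to 0.166 ± 0.00415 with the nearest libraries at 0.169798 and 0.169742. *FKBP4* over *FKBP5* went from 6.47 ± 0.257 to 5.69 ± 0.242, a log2 change of -0.18. These immunophilins are known to act in opposite ways on the glucocorticoid and progesterone receptors, which does not extend to every steroid receptor. The remaining 5 ratios were chosen after the values had been seen and are a description. *FKBP4* over *HSP90AB1* was 0.200 ± 0.00425 in parental cells and 0.144 ± 0.00127 in PACT KO, a log2 change of -0.47.

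**Figure D4:**
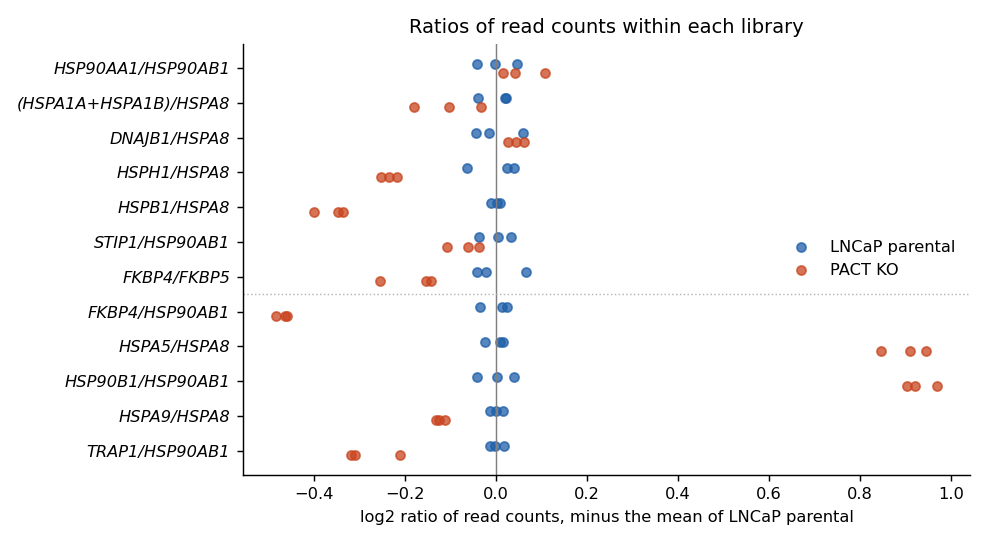
Log2 ratio of read counts of gene pairs in each library, minus the LNCaP parental mean of that ratio, 1 point per library (n = 3 per group). Below the dotted line are the 5 ratios chosen after the values were seen, in which *HSPA5* over *HSPA8* and *HSP90B1* over *HSP90AB1* lie at 0.90 and 0.93 in PACT KO.

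Genes related to the cytosolic system were taken from lists set by function. Together these 6 lists hold 75 genes, of which 65 were tested: 29 were lower (44.6%, against 18.8% of all genes tested and 36.1% of the well expressed genes defined above), 4 were higher and 32 did not pass, the median log2 fold change was -0.10, and 0 passed the DEG threshold in either direction. Of 18 other HSP90 co-chaperones 9 were lower (50%, beside the same shares), 0 were higher (15.3% of all genes tested were) and 9 did not pass, with a median of -0.16. *FKBP5*, the immunophilin that competes with FKBP4 for HSP90 and a known androgen-induced gene, fell from 64.2 ± 1.90 to 47.0 ± 1.22 CPM (log2 fold change -0.45, SE 0.04, FDR = 5.25e-12). *PTGES3*, the p23 protein that closes the mature receptor complex, fell from 443 ± 3.33 to 362 ± 4.95 CPM (-0.29), and *CDC37*, which brings kinases to HSP90, from 215 ± 5.39 to 186 ± 6.50 CPM (-0.21). *NUDC* and *CACYBP*, also lower, had log2 fold changes of -0.28 and -0.25.

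Of 10 partners of HSP70 in nucleotide exchange and ubiquitination, 5 were lower, 2 higher and 3 did not pass, with a median log2 fold change of -0.12. The lower share was 50%, against 18.8% of all genes tested and 36.1% of well expressed genes. Of all genes tested 15.3% were higher, so 2 of 10 is near that share. *SGTA*, a co-chaperone that binds HSP70 and HSP90, fell from 166 ± 1.37 to 131 ± 2.40 CPM, and *STUB1*, the ubiquitin ligase that marks HSP70 and HSP90 clients for decay, from 123 ± 3.24 to 97.2 ± 1.91 CPM, with log2 fold changes of -0.34 and -0.33. *BAG3*, a nucleotide exchange factor of selective autophagy, fell from 87.5 ± 4.52 to 73.7 ± 1.52 CPM and *BAG5* had a log2 fold change of -0.16. The 2 that rose, named after their values were seen, were *BAG2* (0.25 on the log2 scale) and *BAG4* (0.17). Without the second parental or the third PACT KO library 0 of the 2 were called, and without the first parental or the second PACT KO library 1 was.

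Of the other HSP70, HSP110 and HSP40 genes, 16 of the 19 listed were tested. Of these 5 were lower (31.2%, between the 18.8% of all genes and the 36.1% of well expressed genes), 1 was higher and 10 did not pass. The median log2 fold change was -0.07. The share depends on the list, which includes *DNAJB14*, *DNAJC8* and *DNAJC9*. Their proteins are not confined to the cytosol, and these genes did not pass. *HSPA4*, an HSP110 like HSPH1, fell from 292 ± 5.52 to 246 ± 3.19 CPM (-0.24), and *HSPA14*, *DNAJA2* and *DNAJA1* had log2 fold changes of -0.17, -0.16 and -0.10, all lower. *DNAJB5*, an HSP40, rose from 18.9 ± 0.683 to 24.1 ± 0.725 CPM (0.35). *HSPA6*, an HSP70 known to be read almost only under stress, had 12, 0 and 7 counts in parental libraries and 5, 5 and 2 in PACT KO and was not tested.

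Few small heat shock proteins besides HSPB1 were read in these cells. Of 9 listed 3 were tested and 0 passed in edgeR. *CRYAB*, the lens and muscle relative of HSPB1, was read at 1.06 ± 0.116 and 1.28 ± 0.484 CPM, and *HSPB8* at 1.67 ± 0.592 and 1.33 ± 0.0917 CPM. *HSPB11*, listed for its symbol although its protein is known from intraflagellar transport, was read at 50.7 ± 2.19 and 51.9 ± 1.68 CPM. The chaperonin TRiC, which folds actin and tubulin, and its helper prefoldin were taken as 14 genes, of which 9 were lower, 1 higher and 4 did not pass, with a median log2 fold change of -0.15. The lower share was 64.3%, against 18.8% of all genes tested and 36.1% of well expressed genes, while 15.3% of all genes were higher. The 9 included *TCP1*, which fell from 650.1 ± 10.2 to 552 ± 12.9 CPM, *CCT5*, *CCT3* and *CCT7*, with log2 fold changes of -0.24, -0.24, -0.23 and -0.22. *CCT2*, *CCT4*, *CCT6A* and *CCT8* were lower too, so every listed chaperonin gene was lower. In prefoldin only *PFDN2* was lower, by 0.25, and *PFDN5* rose by 0.16 on the log2 scale. *PFDN1*, *PFDN4*, *PFDN6* and *VBP1* did not pass, so the lower share came mainly from the chaperonin. Apart from *TCP1*, *CCT5*, *CCT3* and *CCT7*, the genes of this list were named, and the list split by complex, after the values were seen.

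Of 4 tested heat shock factors and regulators, 1 was lower (25%, near the 18.8% of all genes tested), and without the first PACT KO library 2 were. *HSF1*, the main activator of the heat shock genes, fell from 91.5 ± 3.93 to 81.9 ± 2.56 CPM (log2 fold change -0.16, SE 0.04, FDR = 3.50e-04). *HSF2* had 26.0 ± 1.64 and 28.1 ± 0.860 CPM (0.11, SE 0.06, FDR = 0.152), and *HSF4* and *HSBP1* had log2 fold changes of -0.21 and -0.06 that did not pass. These are mRNA levels, and the activity of a heat shock factor, which depends on its state as a protein, was not measured.

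Relatives of the same families in other compartments went in both directions. Of 9 organelle chaperones 5 were lower, 3 were higher and 1 did not pass. The lower share was 55.6%, against 18.8% of all genes tested and 36.1% of well expressed genes, while 15.3% of all genes were higher. *HSPA5* (BiP), the HSP70 of the endoplasmic reticulum, rose from 781 ± 19.7 to 1338 ± 61.5 CPM, and *HSP90B1* (GRP94), its HSP90, from 952 ± 9.35 to 1621 ± 39.7 CPM. Both were DEGs, as were 3.07% of all genes tested in the higher direction, with log2 fold changes of 0.78 (SE 0.03, FDR = 3.86e-23) and 0.77 (SE 0.03, FDR = 2.01e-24), and *HYOU1*, the HSP110 of that compartment, rose by 0.27. In mitochondria *TRAP1*, the HSP90, fell from 185 ± 5.54 to 136 ± 3.795 CPM (-0.44), and *HSPD1*, the chaperonin HSP60, had a log2 fold change of -0.31. *HSPA9*, the HSP70, *DNAJA3*, its HSP40, and *GRPEL1*, its nucleotide exchange factor, had log2 fold changes of -0.25, -0.36 and -0.27, all lower. Of these, *HYOU1*, *HSPA9*, *DNAJA3* and *GRPEL1* were named after their values were seen. Set against their cytosolic relatives, in ratios chosen after the values had been seen, *HSPA5* over *HSPA8* went from 0.276 ± 0.00417 to 0.514 ± 0.0178 and *HSP90B1* over *HSP90AB1* from 0.459 ± 0.0129 to 0.875 ± 0.0210, while *HSPA9* over *HSPA8* and *TRAP1* over *HSP90AB1* changed by -0.12 and -0.28 on the log2 scale.

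**Figure D5:**
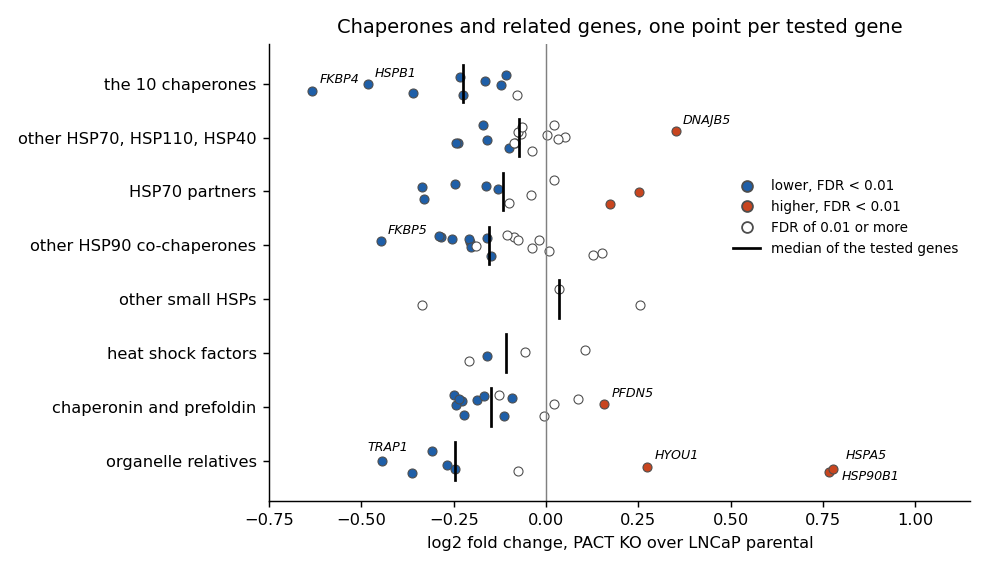
Log2 fold change of every tested gene by functional list, blue for lower and red for higher at an FDR under 0.01, open otherwise, with a black bar at the median of each list. The medians of the chaperone list and of organelle relatives lie at -0.23 and -0.25, and *HSPA5* and *HSP90B1* stand at the far right at 0.78 and 0.77.

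Of the receptors that these chaperones are known to hold, *NR3C2*, the mineralocorticoid receptor, rose at the mRNA level from 22.2 ± 0.813 to 33.0 ± 0.933 CPM (log2 fold change 0.57, SE 0.06, FDR = 1.90e-10). *NR3C1*, the glucocorticoid receptor, had 14, 10 and 8 counts in parental libraries and 2, 7 and 5 in PACT KO and was not tested. *PGR*, the progesterone receptor, was read at 1.99 ± 0.318 CPM in parental cells and 1.38 ± 0.0425 CPM in PACT KO and did not pass (FDR = 0.0282).

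Markers of other cell types were set beside these values. The 8 luminal prostate markers, all of them tested, summed to 3728 to 3754 CPM in parental libraries and 3826 to 3877 in PACT KO. The 3 basal markers summed to at most 0.185 CPM with *KRT5* at 0 in all libraries. The 5 stromal markers summed to 27.8 to 31.2 CPM in parental cells and 39.5 to 44.6 in PACT KO, nearly all from *COL1A1* with *COL1A2* at 0. The 3 endothelial markers summed to 24.3 to 27.0 CPM and 15.6 to 17.7, all from *VWF* with *PECAM1* and *CDH5* at 0. The 4 immune markers summed to 2.03 to 2.26 CPM and 1.46 to 1.68, with *CD3E* and *MS4A1* at 0. Nearly all of this came from *CD68*, which did not pass in edgeR (FDR = 0.0512). *COL1A1* and *VWF* were thus well above the limit of detection and differed between the groups, while the markers named at 0 were not read. The part of *COL1A1* and *VWF* in the results above was not tested.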

How the data were processed

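Whole-number read counts per gene, not normalized, were deposited for 6 polyA RNA libraries. Per the labels' processing notes the authors used bcl2fastq 2.20.0.422, STAR 2.5.3a, StringTie 1.3.3, featureCounts 1.5.3 and hg38. The annotation, use of strand and treatment of multiply mapped reads are not given in the sources used here. A row without a gene number (0.0688% to 0.0708% of counts) was left out, and 27540 of 29806 gene numbers (92.4%) matched a RefSeq symbol (GRCh38.p14). Genes were kept by filterByExpr, libraries scaled by TMM, and groups compared by edgeR 4.0.16 (R 4.3.3) glmQLFit and glmQLFTest, 2-sided, with FDR by Benjamini-Hochberg over all 14462 genes tested. A DEG has an FDR under 0.01 and at least a 1.5-fold change, the study's thresholds. The script was tested on simulated data. CPM use TMM factors, and SE is that of the log2 fold change. Ratios of counts used an exact permutation test. Limits from counts cover counting error only.

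The labels number the dishes but say nothing of pairing. Deviations of same-numbered libraries correlated at -0.108, 0.0115 and -0.0796 over genes, so the numbers were not used as pairs. The members, lists and the rule for naming genes were chosen with earlier results of these data known: all members, up to 4 genes of smallest p per list, and 13 genes for their known roles, of which 1 is not reported here. Other tools, scalings, filters, thresholds and left-out libraries were tried as alternatives.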

Additional observations from a re-analysis of the deposited data

How the results depend on the processing

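The fold changes of the 9 tested chaperones kept their direction in all 171 alternative values computed, of which 162 stayed on the same side of the FDR threshold, 8 lost the call and 1 gained it. At an FDR under 0.05 and with glmTreat the direction could not differ, as both reuse the fold changes of the main test. DESeq2 1.42.0, limma-voom (limma 3.58.1), edgeR's likelihood ratio test, other scalings, other filters on low counts and sums with HSPA1A or pseudogene rows left the count of lower chaperones within 1.5 times 8, as did leaving out single libraries, which gave 7 to 8 lower and 1 DEG. The 2 losses among the latter were of *HSP90AA1*. The sums added at most 2 counts of *HSPA1A* per library and 3 pseudogene counts over all libraries. With so few reads added, the sums could not test the calls. With the replicate block 8 were lower, log2 fold changes ran from -0.63 (*FKBP4*) to -0.08 (*DNAJB1*), and the block changed no other call on the chaperones. At an FDR under 0.05 all 9 tested were lower. Tested against a change of 1.2-fold (glmTreat), which by construction asks for a larger change, 2 chaperones, 1 related gene lower and 0 related genes higher passed, and the FDR of *HSPH1* was 0.0102. With at least a 1.2-fold change in place of 1.5, 3 chaperones were DEGs. Leaving out single libraries gave 26 to 29 related genes lower and 2 to 5 higher, the 2 coming without the second parental library. The log2 change of the summed level was -0.17, but -0.15 with upper quartile factors, -0.14 with library totals alone and -0.27 as the mean of log2 CPM, which weighs each gene alike, and -0.18 to -0.16 without single libraries. Among all genes tested, the scalings moved the median by at most 0.03 (log2), and lower genes were 55.2% of calls, or 45.6% with library totals alone. One clone, 3 dishes a group and mRNA alone limit what these values say of PACT, and depth limits *HSPA6* and *NR3C1*.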
